A study of Mus musculus with 11 samples.

Results

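Fos, Fosb, Fosl2, Jun, Junb, Jund, Egr1, Egr2, Ier2 and Atf3 are AP-1 and Egr immediate-early genes, and these 10 gene symbols were taken from the 23284 genes listed for each library. They were followed in mouse embryonic stem cells (ESCs) through 4 h of α-amanitin, an inhibitor of transcription. Wild-type (WT) cells and cells lacking Tet1, Tet2 and Tet3 were used, and the level in polyA RNA was read as well. In WT cells, 7 of the 8 members that could be tested fell after α-amanitin, where 15.8% of all genes tested were called lower, and 3 were called without the first treated WT library. Egr1 kept 48.4% of its 0 h level, Atf3 58.7% and Junb 77.8%, while Jund stood at 106.5% and did not pass the test. In the triple knockout (TKO) cells, where 0.265% of all genes were called lower, none of the 8 passed. Each of the 8 was lower in both treated libraries than in both untreated libraries, as were 26.0% of all genes tested. The difference between the genotypes in the size of the loss passed for no member. Before treatment, Jun and Fosl2 were more than 3-fold higher in TKO than in WT cells.

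AP-1 is a dimer of basic leucine zipper proteins. The Jun proteins pair with one another or with Fos proteins, whereas Fos proteins need a Jun partner to bind DNA, and Atf3 is a related partner that often acts as a repressor. Egr1 and Egr2 are zinc finger factors that bind GC-rich sites, and Ier2 is a short immediate-early protein of less defined function. Immediate-early genes are switched on within minutes of a growth factor or stress signal without new protein synthesis, largely through serum response factor (SRF) and its partners downstream of MAP kinases, and their mRNAs are commonly short-lived, in several cases through AU-rich elements in the 3′ untranslated region (UTR). The cultures studied here were kept in serum.

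The libraries fell into 5 groups. WT and TKO ESCs were sequenced as ribodepleted total RNA, either untreated (0 h) or after 4 h of 10 µg/ml α-amanitin, which blocks RNA polymerase II, with 2 libraries per group and 8 in all, and 3 further libraries came from polyA RNA of WT ESCs. All cells grew on gelatin, without listed feeder cells, in serum with leukemia inhibitory factor. The TKO cells were a line made earlier, so the loss of the Tet genes and any other difference of that line cannot be told apart. Water was the vehicle of the control cells. The labels list no library of 4 h without α-amanitin, so the drug and the elapsed 4 h cannot be told apart. How completely transcription stopped was not tested, so a share kept at 4 h is not a rate of decay. The amanitin experiment is described by the study as done in biological duplicate, and its experiments in general as independently repeated. The labels do not tie single libraries to separate cultures, so p-values measure the spread between these libraries, part of which may be technical.

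The deposited unit is TPM, a share of all transcripts that is already per length of the gene. It was divided by 1 size factor per library, so that every level below is a scaled TPM and a change is relative to the typical gene: a loss shared by all transcripts is not visible. In bulk RNA, fewer cells expressing a gene and less of its RNA per cell cannot be told apart. Read numbers recovered from the TPM steps came to 25507874 to 29781366 per ribodepleted library and 72639837 to 82129168 per polyA library. As a check of the labels, scaled TPM of Tet1 at 0 h were 133.5 for WT and 30.1 for TKO cells, those of Tet2 were 51.8 and 7.45, while Tet3 was at 1.45 in each, and a gene-level value does not show a deleted exon. All 9 ESC markers were above 1 TPM in every group, with a sum of 4504 to 4752 TPM in the ribodepleted libraries. The 8 fibroblast markers summed to 9.24 to 14.95 TPM there. In each ribodepleted group 4 or 5 of these 8 had a mean above 1 TPM. Their highest mean was 5.48 TPM (Col1a2, TKO 4 h), while Dcn and Lum were below 0.5 TPM in each ribodepleted library.

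The 3′ UTRs of the members are shown first, because AU-rich elements of the letters ATTTA bear on how long such mRNAs last. At least 1 ATTTA on the sense strand stood in the longest annotated 3′ UTR of 9 of the 10 members, against 61.3% of 19915 genes, and the longer form TATTTAT, which contains ATTTA, in 6 members against 23.9%. Beside UTRs within 20% of their own length, 6 members held more ATTTA than the median, 2 held as many and 2 held fewer. Fos held 4 in 815 bases where the median was 1, Jun 4 in 1233 bases where it was 2, and Fosl2 8 in 4642 bases where it was 7, whereas Fosb held 1 in 2120 bases where it was 3 and Ier2 none in 755 bases where it was 1. This difference in counts was not tested. The following stretches of 30 bases, read from the mm9 genome, are those with most ATTTA in the UTRs of the tested AP-1 members, with ATTTA in capitals. Fos, Fosl2 and Jun hold 2 copies in such a stretch, which overlap in Fos, and Junb, Jund and Atf3 hold 1.
Fos, chr12:86818050-86818079, plus strand: ttgtgttttcaATTTATTTAttaagatgga
Fosl2, chr5:32459237-32459266, plus strand: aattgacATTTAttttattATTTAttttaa
Jun, chr4:94715898-94715927, minus strand: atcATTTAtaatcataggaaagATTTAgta
Junb, chr8:87501026-87501055, minus strand: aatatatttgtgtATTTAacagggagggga
Jund, chr8:73224257-73224286, plus strand: ccgattccgccctATTTAtgtttctactcg
Atf3, chr1:192995121-192995150, minus strand: caccaattccaggATTTAggccttatcatc

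Promoters from 250 bases before to 50 after the start were listed by RefSeq (GRCm38.p6) for 8 members, with 12 starts among them, and both strands were searched. Egr1 and Ier2 had no listed promoter, and sites outside these windows were not looked for in any member. Within these windows the CArG box, the SRF site, was found in 1.63% of 32851 promoters and in 1 of the 8 members, Egr2, at 2 places that serve different starts. GCGGGGGCG, a GC-rich site of the kind bound by Egr proteins that overlaps the letters of an Sp1 site, was found in 2.91% of promoters and in Fosb and Fosl2. TATAAA was found in 13.6% of promoters and in Fos and Junb. The related Egr site GCGTGGGCG, the cyclic AMP response element TGACGTCA and the AP-1 site TGANTCA stood in none of the 12 windows, against 0.612%, 1.79% and 7.81% of all promoters. The 4 windows with an SRF or Egr type of site are given with the motif in capitals, since these are the factors that the members respond to or encode.
Egr2, chr10:67537787-67537816, plus strand: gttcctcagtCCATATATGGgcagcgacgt
Egr2, chr10:67537484-67537513, plus strand: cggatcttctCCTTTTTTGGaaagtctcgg
Fosl2, chr5:32136382-32136411, plus strand: tccggctgcgcGCGGGGGCGgaagggcgcg
Fosb, chr7:19310077-19310106, minus strand: gtgacgcaagcGCGGGGGCGggtcccggag

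Of the members 4, Jun, Junb, Jund and Ier2, consist of a single exon in the longest-UTR transcript, against 7.67% of genes. Fos, Fosb, Fosl2 and Atf3 have 4 exons and Egr1 and Egr2 have 2, where the median gene has 7. In mm9 they lie on chromosome 12 (Fos, 86814840 to 86818223), chromosome 7 (Fosb, 19888070 to 19895394), chromosome 5 (Fosl2, 32438845 to 32460204), chromosome 4 (Jun, 94715725 to 94718913), chromosome 10 (Egr2, 66998223 to 67004936), chromosome 1 (Atf3, 192994175 to 193007219) and chromosome 18 (Egr1, 35020861 to 35024638). Chromosome 8 carries 3 of them, Junb from 87500811 to 87502617, Ier2 from 87185230 to 87186751 and Jund from 73221638 to 73224515. Jun, Jund and Egr1 overlap an annotated gene on the other strand (BC042782, Gm11175 and Gm17507), and the strand setting of the counting was not given in the sources used here, so reads of these partners may be included in their values.

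The question of the first comparison was which members were lower after 4 h of α-amanitin than in untreated cells. Of the 8 members above a mean of 1 scaled TPM, 7 passed the limma test in WT cells (adjusted p under 0.05) and all 7 were lower. Among all 12467 genes tested, 15.8% were called lower (1965 genes) and 2730 were called higher, and 32.5% had every 4 h library below every 0 h library. The median change of the 8 members was -0.44 on the log2(scaled TPM + 1) scale and that of all tested genes 0.03. On TPM as deposited, without size factors, the median of all genes moved to -0.11 and the calls to 3143 lower and 398 higher, and again 7 members were called lower. The log2(scaled TPM + 1) scale understates changes of low genes, and with a further limit of 1.5-fold on it 1 member remained, Egr1, where 2.01% of all genes were called lower.

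**Figure D1:**
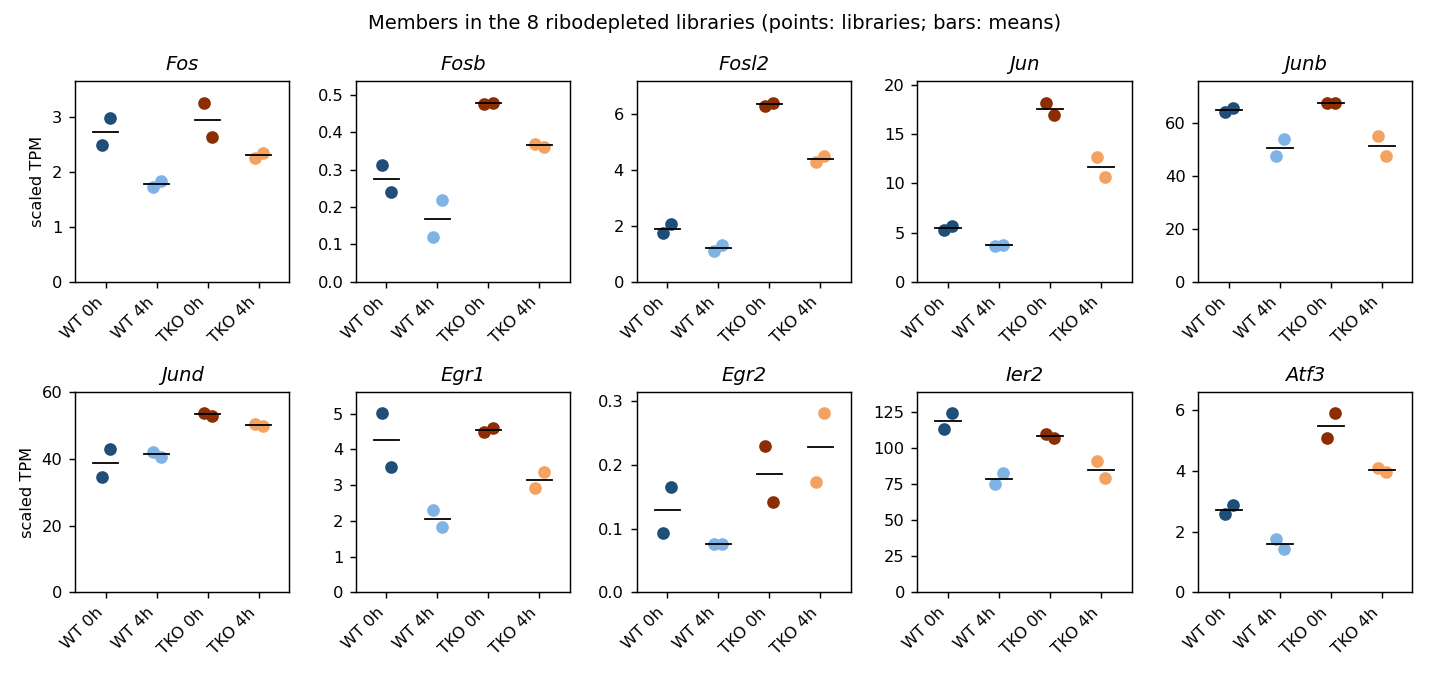
Scaled TPM (y axis, from 0, its own range for each gene) of the 10 members in the 8 ribodepleted libraries by group (x axis). Points are libraries and bars are group means. In WT the treated libraries lie below the untreated ones for every member but Jund, and Jun, Fosl2 and Atf3 lie higher in TKO than in WT libraries.

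Within the Jun family, Jun and Junb fell in WT cells and Jund did not pass. Jun, the founding AP-1 subunit, was at 5.29 and 5.65 scaled TPM in the untreated WT libraries and at 3.67 and 3.73 after 4 h. The 2 pairs of libraries did not overlap and the log2 difference was -0.46 (SE 0.088, adjusted p = 0.00792). Junb, which can oppose Jun on growth genes, was at 64.4 and 65.8 and then at 47.5 and 53.8, a log2 difference of -0.36 (SE 0.077, adjusted p = 0.0105). Jund, the member of the family that is least inducible in most cells, was at 34.6 and 43.1 untreated and at 42.0 and 40.7 treated. Its groups overlapped, with the treated libraries between the untreated ones, and the log2 difference of 0.10 had a 95% interval from -0.10 to 0.29 (adjusted p = 0.401). Without the first untreated WT library it was -0.06, and without the second it was 0.25 (adjusted p = 0.0291), so that 1 library set its sign. Without the first treated WT library the calls of Jun (adjusted p = 0.0560) and Junb (0.0818) were lost.

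Fos and Fosl2 passed in the Fos family, and Fosb was too low to be tested. Fos, the classical serum-induced gene, was at 2.48 and 2.97 scaled TPM untreated and at 1.72 and 1.82 treated, from 75 and 89 reads down to 48 and 51 reads. The log2 difference was -0.42 (SE 0.112, adjusted p = 0.0200). Fosl2, which encodes the Fos-related antigen Fra-2, was at 1.74 and 2.07 and then at 1.11 and 1.33, with a log2 difference of -0.39 (SE 0.097, adjusted p = 0.0166). Both calls were lost under quantile normalisation (adjusted p = 0.0573 for Fos and 0.0502 for Fosl2), without the first treated WT library (0.102 and 0.104) and without the second untreated one (0.105 and 0.0840), and that of Fos also without the second treated one (0.0601). Fosb was at 0.312 and 0.240 untreated and at 0.119 and 0.218 treated, which were 17, 13, 6 and 11 reads, and kept 61.0% of its level in this ratio of means. Without a filter on low values its limma adjusted p was 0.155.

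Egr1, Ier2 and Atf3 had the largest WT differences among the members. Egr1, which couples growth factor signals to transcription, was at 5.01 and 3.50 scaled TPM untreated and at 2.30 and 1.83 treated. The untreated libraries differed from each other by more than the lower of them differed from the higher treated one, and the log2 difference was -0.77 (SE 0.143, adjusted p = 0.00749), and 1.28% of the genes tested had a lower value. Atf3, a stress-induced bZIP gene, was at 2.56 and 2.86 and then at 1.75 and 1.44, with a log2 difference of -0.52 (SE 0.103, adjusted p = 0.00874). Ier2 was the most abundant member, at 113 and 124 untreated and at 75.1 and 82.3 treated. The groups of Ier2 stood far apart relative to their spread, and its log2 difference of -0.58 (SE 0.076) had the smallest adjusted p among the members, 0.00395. Egr2, which acts in hindbrain and Schwann cell development, was at 0.0935 and 0.165 untreated and at 0.0759 and 0.0757 treated, or 4, 7, 3 and 3 reads, too few to judge a change.

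In TKO cells the same 8 members were all lower at 4 h, with a median log2 difference of -0.38 against 0.01 for all tested genes, and none passed. Few genes passed at all in this comparison, with 0.265% of 12467 genes lower (33 genes) and none higher, while 26.0% had every 4 h library below every 0 h library. At an unadjusted p under 0.05 the count was 6 of the 8 members and 3110 of all 12467 genes. The unadjusted limma p of Jun was 0.000183 in TKO and 0.000646 in WT cells. That of Fosl2 was 0.00135 and 0.00332, and that of Junb 0.00071 and 0.0013. The other tested members had a larger unadjusted p in TKO than in WT cells. With limma voom on the recovered reads, 4 members were called lower (Jun, Fosl2, Junb and Ier2), together with 503 of all genes lower and 234 higher. Without the first TKO 4 h library the same 4 genes were called. The closest to the threshold was Jun, at 18.2 and 16.9 scaled TPM untreated and at 12.7 and 10.7 treated, with a log2 difference of -0.55 (SE 0.088, adjusted p = 0.0548), and it passed on deposited TPM, with quantile normalisation, with a pseudocount of 5 and with a filter at 5 TPM.

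**Figure D2:**
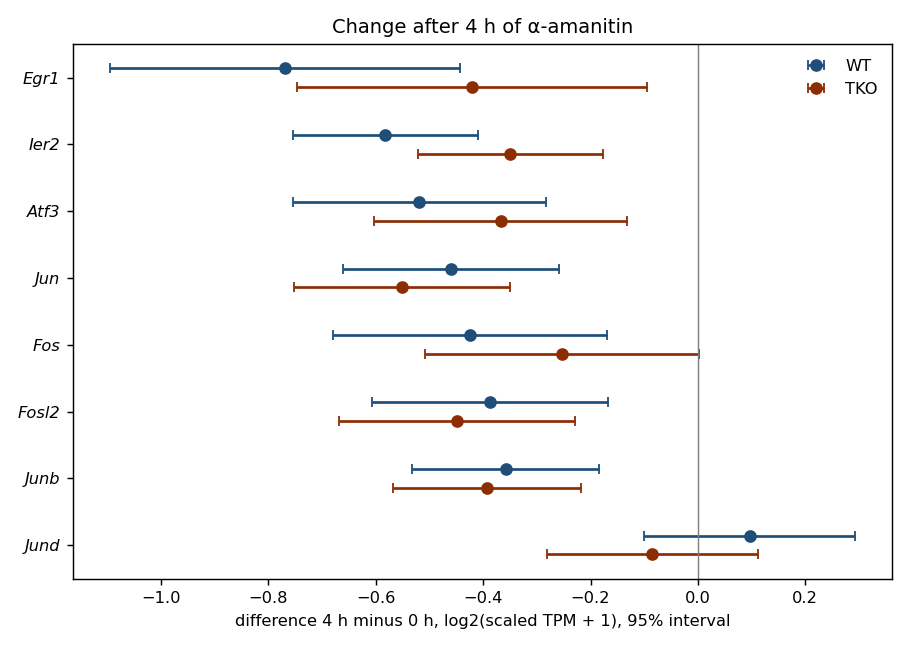
Difference between 4 h and 0 h on the log2(scaled TPM + 1) scale (x axis) with its 95% interval for the 8 tested members (y axis), in WT and TKO cells. In WT the intervals of all but Jund lie below 0, and the WT and TKO intervals of every member overlap.

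The remaining TKO values were close to those of WT for some members and smaller for others. Fosl2 went from 6.31 and 6.43 to 4.30 and 4.50, or 69.1% of its untreated mean, and Junb from 67.7 and 67.8 to 55.2 and 47.7, or 76.0%. Egr1 went from 4.48 and 4.60 to 2.92 and 3.37, keeping 69.3% where WT cells kept 48.4%. Ier2 went from 109 and 107 to 90.5 and 79.0, keeping 78.5% where WT cells kept 66.5%, and Atf3 from 5.08 and 5.88 to 4.09 and 3.94, keeping 73.3%. In each of these genes the untreated and the treated libraries stood apart, with adjusted p from 0.0822 (Junb) to 0.142 (Egr1). Fos went from 3.26 and 2.63 to 2.25 and 2.35 (adjusted p = 0.202), and Jund from 53.7 and 53.0 to 50.7 and 49.9, which was 94.2% (adjusted p = 0.556). Fosb, at 0.476 and 0.479 and then 0.370 and 0.360, kept 76.4%, on 29, 26, 19 and 18 reads. Egr2 was the one member with a higher mean after treatment, 0.230 and 0.141 and then 0.174 and 0.281, on 11, 6, 7 and 11 reads with overlapping groups.

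Whether the loss differed between the genotypes was tested by the interaction of genotype and treatment. No member passed, and neither did any other gene, so that 0.0% of 12467 genes were called lower and 0.0% higher, with 938 genes and none of the members at an unadjusted p under 0.05, and limma voom also called none. The largest interaction was that of Egr1, 0.35 on the log2 scale with a 95% interval from -0.11 to 0.81 (adjusted p = 0.687), followed by Ier2 with 0.23 from -0.01 to 0.48 (adjusted p = 0.677). The intervals of Jun (-0.38 to 0.19), Fosl2 (-0.37 to 0.25), Junb (-0.28 to 0.21), Fos (-0.19 to 0.53), Atf3 (-0.18 to 0.48) and Jund (-0.46 to 0.10) likewise included 0. With 2 libraries per group, a difference in loss of up to about these bounds was not detectable, and the pass of 7 members in WT against none in TKO is not by itself a test of a difference between the genotypes.

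The other genes of the same response were read from fixed lists. Among all genes tested in WT cells, 15.8% were called lower, and 2.01% by over 1.5-fold. Of 30 other immediate-early genes, 29 were tested and 24 were lower in WT cells, 8 of them by over 1.5-fold, with a median log2 difference of -0.45. These 8 were Cyr61 (32.9 to 15.7 mean scaled TPM) and Ctgf (45.4 to 24.4), which encode secreted matrix proteins, Dusp1 (22.1 to 12.9), a MAP kinase phosphatase, the zinc finger factors Klf2 (120.9 to 78.5) and Klf6 (41.5 to 24.5), Myc (34.5 to 21.8), the kinase gene Sgk1 (226.8 to 148.1) and the GTPase gene Rhob (16.2 to 10.4). The most abundant of the list, the survival gene Mcl1, fell from 277.6 to 215.5. In TKO cells 4 of the list passed, all lower by over 1.5-fold: Cyr61 (log2 difference -0.93), Ctgf (-0.88), Dusp1 (-0.61) and Klf6 (-0.59), with a median of -0.36 over the list. Of all genes, 0.265% were called lower in TKO cells, and 0.16% by over 1.5-fold.

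Genes that encode partners and regulators of the members moved less. Of 10 other AP-1 and partner bZIP genes, 8 were tested, and 2 fell in WT cells, Mafk (-0.30) and Mafg (-0.21), while the abundant Atf2 (53.0 scaled TPM) had a log2 difference of -0.05. In the list of other Egr genes and NAB corepressors, which bind Egr proteins and restrain them, Egr3 and Egr4 were below the filter, Nab2 fell by 0.35 and Nab1 differed by -0.02. Among 17 genes for SRF, its partners and the kinases upstream, 2 fell in WT cells (Mkl2 and Elk3). Another 5 rose (among them Map2k1, Mapk3, Map2k2 and Rps6ka1), and the median was 0.05. Of all genes tested in WT cells, 15.8% were called lower and 21.9% higher. On TPM as deposited, means at 0 h and 4 h were 108.8 and 110.5 (Map2k1), 47.7 and 49.9 (Mapk3), 85.3 and 91.8 (Map2k2) and 114.7 and 128.1 (Rps6ka1). Rps6ka1, the highest of this list, stood at 113.4 scaled TPM untreated and at 141.5 treated. None of these 3 lists had a gene past the test in TKO cells, where the medians were -0.12, -0.09 and 0.06.

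**Figure D3:**
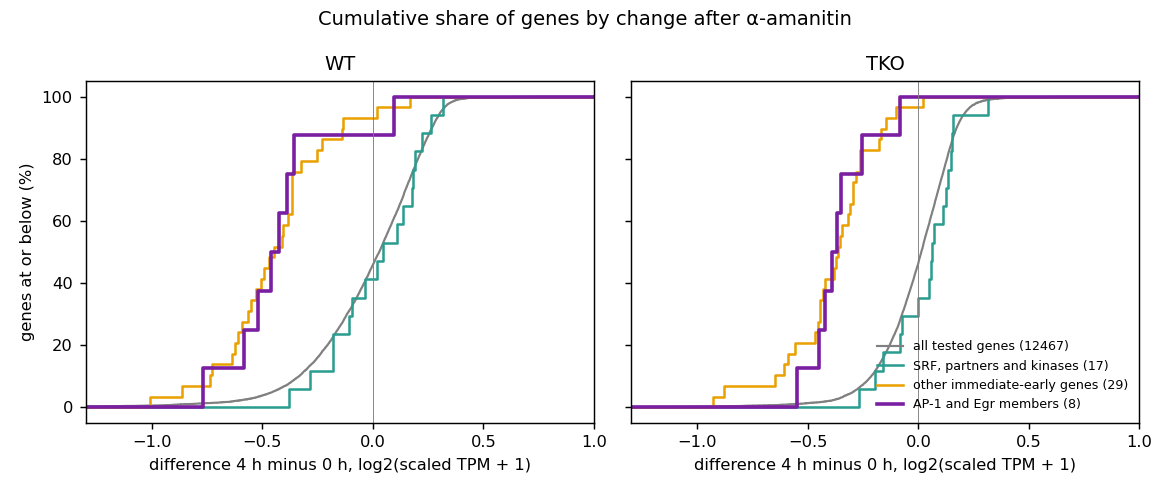
Cumulative share of genes (y axis, percent) at or below each difference between 4 h and 0 h (x axis, log2(scaled TPM + 1)) in WT (left) and TKO (right), with the number of tested genes of each list in the key. The curves of the members and of the other immediate-early genes lie to the left of all genes (medians -0.44 and -0.45 against 0.03 in WT), and that of SRF, its partners and the kinases runs near all genes.

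Markers of other states were read beside the amanitin comparison. In WT cells the heat shock and handling genes, 6 in all, summed to 3650 to 4010 TPM at 0 h and 4012 to 4168 at 4 h, the 8 fibroblast markers to 9.28 to 9.36 and 9.24 to 11.4, and the 5 endoderm markers to 4.00 to 4.14 and 2.97 to 3.24. In TKO cells the same sums were 3865 to 3938 and 3727 to 4033 TPM for heat shock, 13.3 to 13.9 and 13.9 to 14.95 for fibroblast and 2.27 to 2.74 and 1.66 to 2.35 for endoderm genes. Their part in the members' losses was not tested.

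Untreated TKO and WT cells were then compared to see from which level each member started. In TKO cells, 4 of the 8 tested members were higher, Jun, Fosl2, Atf3 and Jund, and none was lower, whereas 27.8% of all tested genes were called higher and 28.2% lower. Jun, Fosl2 and Atf3 were also past the 1.5-fold limit, as were 10.5% of all genes. On deposited TPM the split of all genes moved to 4151 higher and 2197 lower and 4 members were again called higher. The untreated libraries enter this contrast and the amanitin contrasts alike, so the comparisons are not independent of each other.

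Jun had the largest difference on the log2(scaled TPM + 1) scale and Fosl2 the largest ratio of means. Jun went from 5.29 and 5.65 in WT to 18.2 and 16.9 in TKO, which was 3.21-fold, with a log2 difference of 1.52 (SE 0.088, adjusted p = 3.23e-06). Fosl2 was 3.34-fold higher, from 1.74 and 2.07 to 6.31 and 6.43, with a log2 difference of 1.34 (SE 0.097, adjusted p = 9.57e-06). Fewer than 2% of tested genes had a larger difference than either gene. Atf3 was 2.02-fold higher (log2 difference 0.80, SE 0.103, adjusted p = 0.000244) and Jund 1.37-fold higher (0.46, SE 0.086, adjusted p = 0.00206). In all 4 genes both TKO libraries lay above both WT libraries. Without passing, Junb was also higher in both TKO libraries (67.7 and 67.8 against 64.4 and 65.8). Ier2 was lower in both (109 and 107 against 113 and 124). The share of all genes without overlap was not counted. Fos (0.08, 95% interval -0.17 to 0.33), Egr1 (0.09, -0.23 to 0.42), Junb (0.06, -0.12 to 0.23) and Ier2 (-0.13, -0.30 to 0.04) did not pass.

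**Figure D4:**
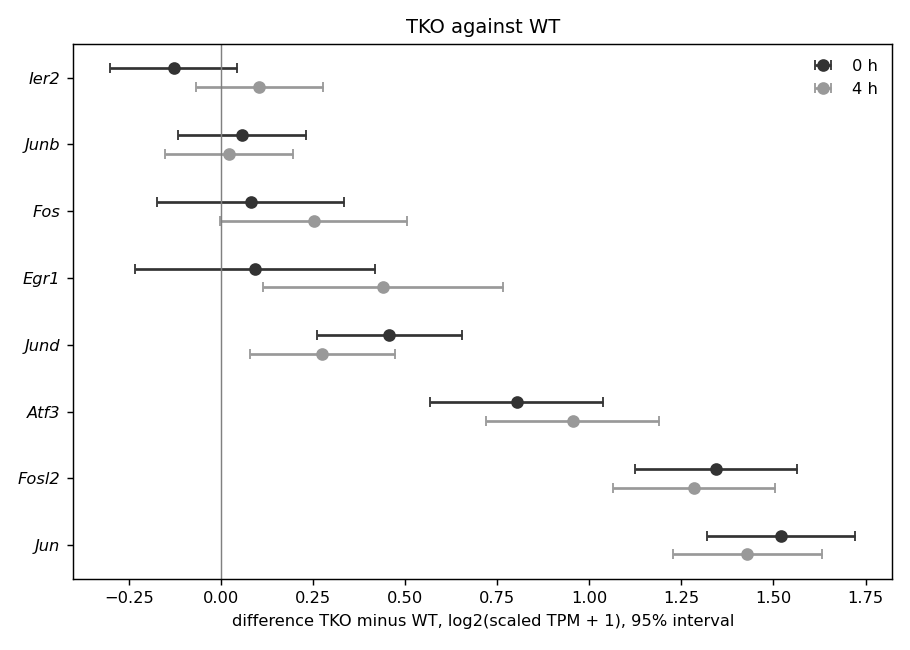
Difference between TKO and WT on the log2(scaled TPM + 1) scale (x axis) with its 95% interval for the 8 tested members (y axis), at 0 h and at 4 h. Jun (1.52 and 1.43), Fosl2 (1.34 and 1.28) and Atf3 (0.80 and 0.95) lie far from 0 at both times.

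The composition of the families differed accordingly. Jun made up 5.07% and 4.93% of the summed Jun family TPM in untreated WT libraries and 13.0% and 12.3% in untreated TKO libraries, while Junb made up 61.8% and 57.4% against 48.5% and 49.2%. Among the members Fos, Fosb and Fosl2, the leading one in WT was Fos (54.8% and 56.2%, with Fosl2 at 38.3% and 39.2%). In TKO it was Fosl2 (62.8% and 67.4%, with Fos at 32.4% and 27.6%). Fosl1, a further Fos family gene outside the members, is left out of these shares. It was at 0.65 and 0.57 scaled TPM in untreated WT and at 2.98 and 2.78 in untreated TKO libraries. The Jun family sums were 104.2 and 114.6 scaled TPM in WT and 139.6 and 137.7 in TKO. Fos, Fosb and Fosl2 together summed to 4.53 and 5.28 against 10.0 and 9.53. These shares are of RNA and say nothing of the protein dimers.

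After 4 h of α-amanitin the genotype differences of Jun (1.43), Fosl2 (1.28), Atf3 (0.95) and Jund (0.28, adjusted p = 0.0225) again passed, and Egr1 passed too (0.44, SE 0.143, adjusted p = 0.0261), for 5 members in all, where 29.1% of all genes were called higher. Egr1 at 4 h was at 2.30 and 1.83 in WT and at 2.92 and 3.37 in TKO. Its call was lost under quantile normalisation (adjusted p = 0.181), without a filter on low values (0.0794), without the second WT 4 h library (0.153) and without the second TKO 4 h library (0.117), and that of Jund was lost when any single 4 h library was left out (0.0536 to 0.106). Fos (0.25, adjusted p = 0.0823), Ier2 (0.10, adjusted p = 0.267) and Junb (0.02, adjusted p = 0.830) did not pass. Ier2 passed without the second TKO 4 h library (adjusted p = 0.0420), and Fos and Ier2 passed on deposited TPM, with 5017 genes called higher, 2072 lower and an overall median of 0.14.

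Among the other lists, 14 of 29 tested immediate-early genes were higher in untreated TKO cells and 5 lower, 9 and 1 of them by over 1.5-fold, and 4 of 8 other AP-1 genes were higher, with Fosl1, the Fra-1 gene, highest at a log2 difference of 1.27, and 1 lower, Atf2 (-0.28), beside the 27.8% higher and 28.2% lower of all genes. Nab1 (0.79) and Nab2 (0.34) were higher as well, while of the SRF and kinase list 3 were higher and 4 lower. Cell markers differed between the genotypes at the same time. Of the 9 ESC markers 5 were lower in TKO cells, led by Zfp42 (log2 difference -2.08), and 2 were higher. Of the 8 fibroblast markers 4 were tested, of which Col1a2 (1.18) and Col1a1 (0.25) were higher and none was lower. Among those below the filter, mean scaled TPM of Postn (1.00 in WT and 0.27 in TKO) and Pdgfra (0.61 and 0.46) were lower in TKO cells. Those of Dcn (0.03 and 0.28) and Lum (0 and 0.14) were higher. The fibroblast list summed to 9.28 to 9.36 TPM in WT and 13.3 to 13.9 in TKO. The endoderm markers summed to 4.00 to 4.14 TPM in WT and 2.27 to 2.74 in TKO. Their part in the differences of the members was not tested.

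PolyA RNA of WT cells gave the level of each member among polyadenylated transcripts. Ier2 was the highest at 222, 223 and 229 scaled TPM, followed by Jund at 64.3, 61.9 and 68.1 and Junb at 53.9, 52.2 and 56.8. Egr1 stood at 10.1, 9.96 and 10.6 and Jun at 3.63, 3.79 and 3.88. The ranges of these 5 neighbours in the order did not overlap. Fos came next at 2.34, 2.09 and 2.23, then Atf3 at 1.44, 2.29 and 1.73, whose highest library reached into the range of Fos, and Fosl2 at 1.34, 1.39 and 1.29. Fosb, at 0.150, 0.189 and 0.151, and Egr2, at 0.0545, 0.0445 and 0.0722, were the lowest, on 21 to 27 and 5 to 9 reads per library.

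In ribodepleted RNA of untreated WT cells Junb ranked above Jund and Jun above Egr1, and in untreated TKO cells Fosl2 and Atf3 both ranked above Egr1. Set beside polyA RNA in a fit of their own, 3 members were higher in polyA RNA and 5 lower, where 40.1% of 12481 genes were called higher and 40.8% lower. The labels name the RNA selection of these groups and give no library kit or sequencing run. They also do not say that the polyA and ribodepleted libraries came from the same cultures. Any difference in kit, run or culture cannot be told apart from that of RNA selection.

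**Figure D5:**
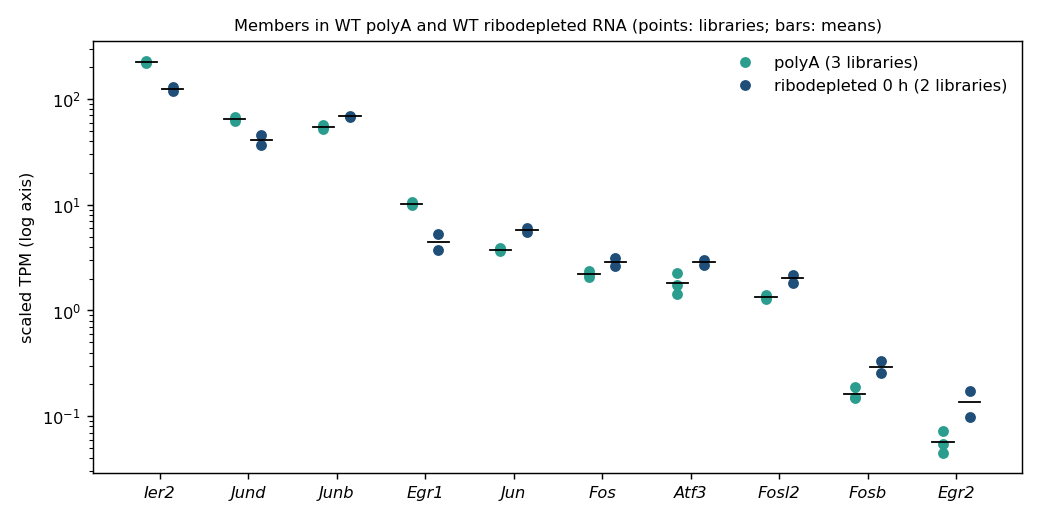
Scaled TPM (y axis, log scale) of the 10 members in 3 WT polyA and 2 WT ribodepleted 0 h libraries, ordered by polyA level (x axis). Points are libraries and bars are means. Ier2, Jund and Egr1 lie higher in polyA RNA and the remaining members lower.

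Egr1 was 2.28-fold higher in polyA RNA than in ribodepleted RNA (5.29 and 3.70 on this scale), with a log2 difference of 1.05 (SE 0.110, adjusted p = 2.76e-05). Ier2 was 1.80-fold higher (119 and 131 in ribodepleted RNA; log2 difference 0.84, adjusted p = 4.68e-07) and Jund 1.58-fold higher (36.5 and 45.6; 0.65, adjusted p = 1.00e-04). Jun was at 65.2% of its ribodepleted level (5.58 and 5.97) with a log2 difference of -0.51 (adjusted p = 1.03e-04), Atf3 at 63.6% (-0.46, adjusted p = 0.00746), Fosl2 at 66.6% (-0.36, adjusted p = 0.00418), Junb at 79.0% (-0.34, adjusted p = 1.16e-04) and Fos at 77.1% (-0.27, adjusted p = 0.0183). The libraries of each of these members did not overlap between the RNA types, and the share of all genes without overlap was not counted. The call of Fos was lost on deposited TPM (adjusted p = 0.0604), without the second polyA library (0.0652) and without the second ribodepleted one (0.0837), and that of Atf3 without the second ribodepleted one (0.0588). For Fosb and Egr2 the polyA means were 56.0% and 41.8% of the ribodepleted ones, from few reads.

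Over the 8 ribodepleted libraries, the genes outside the list whose level followed the mean profile of the 8 tested members most closely, of 9668 with a mean above 5 scaled TPM, included Tsc22d1 (Pearson r = 0.987), Pigg (0.987), Iqcc (0.986) and Kpna2 (0.986), an importin gene. Each of these 4 had a lower mean after α-amanitin in WT cells, with log2 differences from -0.38 (Iqcc) to -0.13 (Pigg), and a higher mean in untreated TKO cells, from 0.15 (Pigg) to 0.26 (Iqcc). Between single members r ran from -0.04 (Jund and Ier2) to 0.993 (Fosl2 and Jun), so the mean profile does not stand for each member. The 8 points stand for 4 groups of 2 libraries, so the likeness is a description of these groups.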

How the data were processed

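The deposited values were TPM per gene (23284 genes, 11 libraries), which the authors made with FastQC, AfterQC, Bowtie2 removal of rRNA and tRNA reads, Trimmomatic, STAR against mm9 with RefSeq genes, and HTSeq; versions and strand setting are not given in the sources used here. All 19869 genes above 0 gave whole reads within 0.01 read. Size factors per library (median of ratios) scaled the TPM, and log2(scaled TPM + 1) of genes with a mean above 1 was tested with limma 3.58.1 (R 4.3.3; trend, two-sided, Benjamini-Hochberg over all genes tested), with the 8 ribodepleted libraries in 1 fit and the 5 WT untreated libraries in another. A gene passed at adjusted p under 0.05. The study used a count test on raw counts; the TPM unit called for limma here. The script was tested on simulated data. The members and lists were chosen with earlier results of these data known. Named were all members, per list the 2 most abundant genes in WT at 0 h and those past 1.5-fold at 4 h, the 5 genes most like the members in profile, the Tet genes and, chosen after their values were seen, list and marker genes behind small counts. A few genes that this rule names are not reported here. Same-numbered libraries deviated with correlations from -0.044 to 0.119, so the numbers did not pair them.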

Additional observations from a re-analysis of the deposited data

How the results depend on the processing

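Of 784 recomputed values of single members, 727 kept direction and side of the threshold, 22 lost and 17 gained a call, and 18 changed sign. The number of members that passed moved as follows, and the cause was not tested except where fewer genes could enter. With a 1.5-fold limit the count was 1 in WT (4 h against 0 h), 3 for TKO against WT at 4 h and 3 for polyA against ribodepleted RNA. With a filter at 5 TPM, under which only Junb, Jund, Ier2 and Jun (for polyA Egr1 in place of Jun) could be tested, it was 3 in WT, 1 in TKO, 2 for TKO against WT at 0 h, 2 at 4 h and 4 for polyA. In TKO it was 1 on deposited TPM, 1 with quantile normalisation, 2 with a pseudocount of 5 and 4 with limma voom. Leaving out 1 library each gave 3 to 7 members in WT (3 without the first treated WT library), 0 to 4 in TKO (4 without the first treated TKO library) and 3 to 5 for TKO against WT at 4 h (3 without the second treated WT library). Sign changes touched only members that had not passed. For Jund in WT the log2 value was -0.059 on deposited TPM, and -0.060 to 0.25 when 1 library was left out. In the interaction, Fosl2 was 0.079 with a pseudocount of 0.1, 0.11 with voom and -0.14 to 0.023 with 1 library left out, Junb was 0.025 on deposited TPM and -0.13 to 0.068, and Jun -0.20 to 0.024. For TKO against WT at 0 h, Fos was -0.072 with quantile normalisation and -0.038 to 0.19 with 1 library left out, and Egr1 -0.037 and -0.12 to 0.29. At 4 h, Junb was -0.019 without a filter and -0.077 to 0.13. A replicate block left the counts at 7, 0, 0, 4, 5 and 8 (WT, TKO, interaction, TKO against WT at 0 h and 4 h, polyA) and changed no call of a member, and the labels do not say that the numbers pair the libraries. Depth limits Fosb and Egr2, with 29 reads or fewer per library.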
